A study of Homo sapiens with 6 samples.

Results

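Proteasome genes were compared between parental A549 cells (Ctrl) and A549 cells from which the MIR21 gene had been deleted (MIR21-KO). They were taken as the protein-coding genes whose symbol starts with PSM, followed by a letter from A to G and a number. This gave 49 of 58174 listed genes, which included 19799 protein-coding genes. A549 is an established human line from a lung adenocarcinoma. Cas9 and a pair of guide RNAs had been used for the deletion, and MIR21-KO cells were grown from single cells, whereas Ctrl cells were the parental population. How many clones stand behind the 3 MIR21-KO libraries is not given, so that a clone's own features and the deletion cannot be told apart. Each group had 3 polyA RNA-seq libraries from cells harvested 48 h after seeding, which by the study's account were independent biological samples.

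The proteasome is the protease complex that degrades ubiquitin-tagged proteins in the cytosol and nucleus. Its core particle is a barrel of outer alpha rings, which gate the entry, and inner beta rings, in which PSMB5, PSMB6 and PSMB7 carry the catalytic sites. The regulatory particle at its ends consists of a base with a ring of ATPases (PSMC genes) that unfolds substrates and of a lid, both with non-ATPase subunits (PSMD genes) that bind and remove ubiquitin or hold the complex together. Interferon is known to induce PSMB8, PSMB9 and PSMB10, which replace the constitutive catalytic subunits in the immunoproteasome, and the activator subunits PSME1 and PSME2, and the peptides made this way are presented by MHC class I. When proteasome activity falls, the transcription factor encoded by NFE2L1 raises most subunit genes together.

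By role, the 49 genes were 8 alpha ring genes (PSMA1 to PSMA8), 7 constitutive beta ring genes (PSMB1 to PSMB7), 4 inducible or thymic beta genes (PSMB8 to PSMB11), 6 ATPases of the base (PSMC1 to PSMC6) and 11 non-ATPase subunits of base and lid (PSMD1 to PSMD4, PSMD6 to PSMD8 and PSMD11 to PSMD14). The others were 3 chaperones of the regulatory particle (PSMD5, PSMD9, PSMD10), 4 activators (PSME1 to PSME4), the inhibitor PSMF1 and 4 chaperones of core assembly (PSMG1 to PSMG4). PSMC3IP fits the naming rule but is a recombination protein and no part of the proteasome. Levels are FPKM, a fragment count scaled by gene length and sequencing depth, so that genes can be compared per length. Differences are log2 fold changes of MIR21-KO over Ctrl on the log2(FPKM + 0.1) scale with their SE, fitted by limma over 16006 genes that averaged 0.5 FPKM or more, and a gene was called at a Benjamini-Hochberg FDR under 0.01.

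The reads recovered from the FPKM values summed to 10631667 to 13491638 in Ctrl and 12444300 to 14345209 in MIR21-KO libraries. MIR21 itself was listed at 0 in all 6 libraries, and since polyA libraries do not capture so short a transcript, this checks nothing. The keratins KRT8, KRT18 and KRT19 stood between 82.9 and 688.1 FPKM in every library, whereas EPCAM was at 0.389 to 1.65 FPKM, and CDH1 fell from 8.18 ± 0.584 to 2.86 ± 0.148 FPKM (FDR = 0.000175). Of 8 markers of leukocytes, endothelium and fibroblasts, 7 stayed under 0.1 FPKM and COL1A1 was at 3.28 to 4.51 FPKM. Over all tested genes 2568 were called (16.0%), and 47.7% of the calls were higher in MIR21-KO, or 59.3% with upper-quartile scaling.

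MIR21-KO libraries differed among themselves along the proteasome genes. The median deviation of the 46 tested members from their Ctrl mean was -0.11 in MIR21-KO replicate 1, -0.21 in replicate 2 and -0.40 in replicate 3, on the log2 scale. Over all 16006 tested genes these medians were between -0.02 and 0.00, so that the overall scale showed no such steps. Genes outside the members could step in the same way: KRT8 had 474.3, 416.5 and 351.7 FPKM in MIR21-KO replicates 1 to 3. UBB had 915.4, 784.1 and 642.1 FPKM, whereas UBQLN1 went the other way with 21.0, 23.3 and 25.7 FPKM. Well-expressed genes as a set were not compared in this manner. Replicate 3 held the lowest of the 3 MIR21-KO values in 37 of the 46 members, compared with 43.4% of all tested genes. Conversely, replicate 1 held the highest in 37 of 46, compared with 40.8% of all. The median SD of log2 values was 0.0708 in Ctrl and 0.178 in MIR21-KO. Replicates 1 and 3 were also the least alike pair within a group over all genes, with a chi-square per degree of freedom of 33.3, against 2.66 to 12.0 for the other such pairs. What sets these libraries apart was not tested, and the counts and medians of the members are also given without replicate 3 and without replicate 1.

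**Figure D1:**
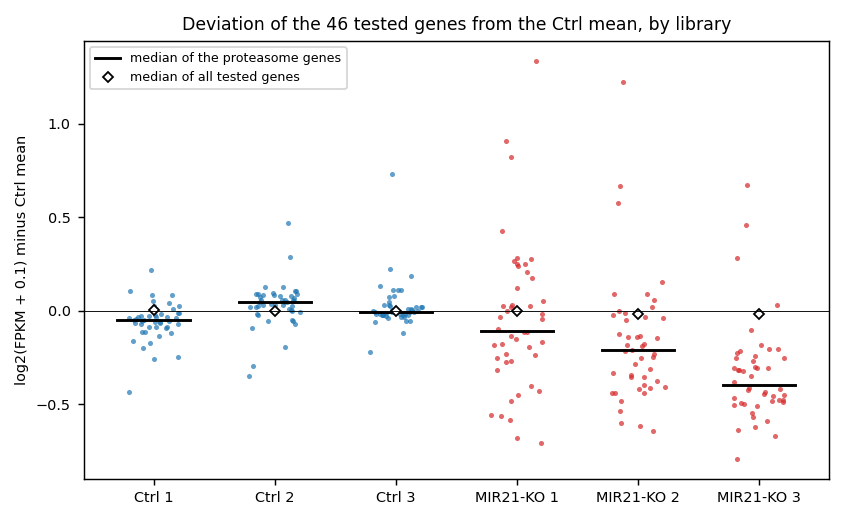
Deviation of each of the 46 tested proteasome genes from its Ctrl mean (y axis, log2 scale) in the 6 libraries (x axis), with bars at the median of these genes and diamonds at the median of all 16006 tested genes. The bars step from -0.11 to -0.21 and -0.40 across the MIR21-KO libraries, and the diamonds stay near 0.

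The levels in Ctrl cells spanned a wide range. Of the core genes PSMA7 was the most abundant, with 210.02 ± 15.4 FPKM (SD, n = 3), and PSMB6 and PSMB7 followed with 161.3 ± 12.1 and 129.00 ± 7.51 FPKM. Among ATPases of the base PSMC4 led with 145.6 ± 3.14 FPKM and PSMC6 was lowest with 14.8 ± 0.580 FPKM. PSMB8, PSMB9 and PSMB10 were at 0.873, 0.165 and 3.28 FPKM, so by FPKM the inducible catalytic subunits were far below the constitutive ones in parental cells. The level of PSMB10 carries a limit from shared bases and that of PSMB8 one from its gene length, both given below. PSMA8, a testis subunit, had no read in any library, which allows for up to 3 reads in each, and PSMB11, a thymus subunit, had 1 read in all.

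Some genes shared much of their sequence with another annotated gene. PSMA2 (1.33 ± 0.430 FPKM), PSMA6 (1.38 ± 0.270) and PSMD9 (1.16 ± 0.0964) lay far below their fellow subunits, and 97.1%, 70.4% and 58.7% of their coding bases are also annotated to another gene on the same strand. PSMA1 shared 88.6% of its coding bases in this manner and PSMB10 58.3%. Whether reads in shared bases were dropped was not tested. PSMC1 shared 47.7% of coding bases with NRDE2 on the opposite strand. For 24 of the 49 genes some exon bases overlap another gene, and since the counting is not stated to use strand, reads of such pairs cannot be told apart.

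**Figure D2:**
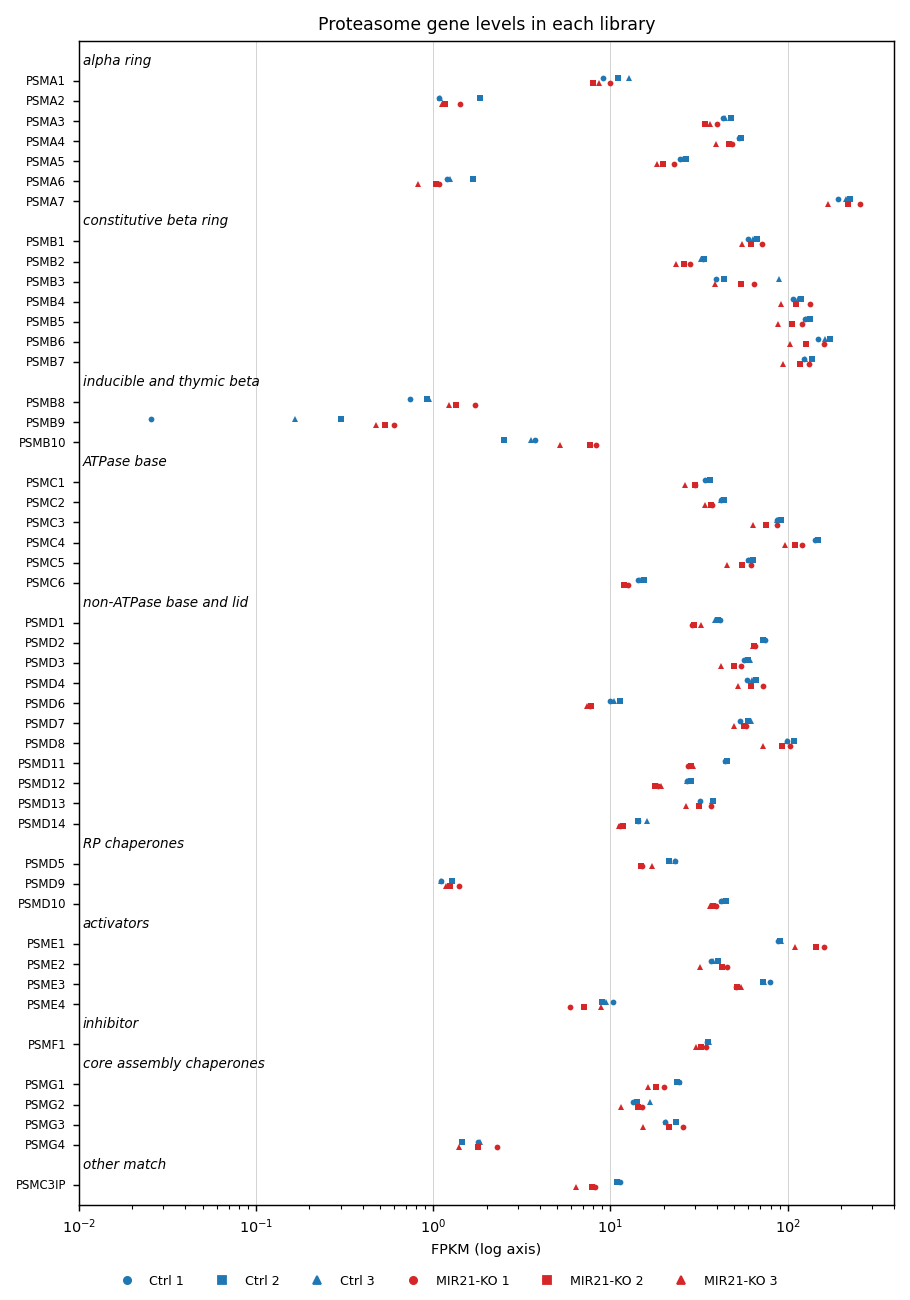
FPKM (log axis) of the 47 proteasome genes with a read in every library, grouped by role, with Ctrl libraries in blue and MIR21-KO libraries in red and replicates by symbol. The inducible beta genes lie at the low end with their red points to the right of the blue ones, whereas most other red points lie on the left.

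Upon MIR21 deletion 6 proteasome genes fell, among them PSMD11 and PSMD12 of the lid and the activator PSME3, as did PSMC3IP, and none rose. Most of the others had slightly lower values in MIR21-KO libraries without passing the test, whereas the inducible subunits PSMB8 and PSMB10 had higher ones. Of 46 tested members, 39 had a negative log2 fold change (84.8%), compared with 51.5% of all tested genes. The median was -0.24, against -0.02 for all genes. Without MIR21-KO replicate 3, 34 were negative with a median of -0.18, where 50.6% of all genes were negative, and without replicate 1 it was 42 with -0.30, where 51.8% were. At an FDR under 0.01, 7 members were called lower (15.2%) and 0 higher, where 8.38% and 7.66% of all tested genes were called. With limma 25 members had an unadjusted p under 0.05, as did 43.2% of all tested genes, and voom on the recovered reads called 10 lower and 2 higher, against 11.4% and 10.5% of all genes. At an FDR under 0.05, 16 were lower and 3 higher, against 16.8% and 15.2% of all genes. Well-expressed genes as a whole were close to the members in calls but not in sign: of 4220 tested protein-coding genes that averaged 10 FPKM or more, 16.1% were called lower, 59.95% were negative and the median was -0.10. In these bulk samples, less RNA per cell and fewer cells that express a gene cannot be told apart.

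The 3 MIR21-KO values lay below all Ctrl values in 25 members, where 25.2% of all genes did so, and above them in 3, where 22.8% of all genes did. These 3 were PSMB8, PSMB10 and PSME1. PSMB9, which was not tested, showed the same order. Without MIR21-KO replicate 3 the calls were 8 lower and 2 higher, namely PSMB10 and PSME1, where 11.3% and 9.99% of all genes were called. These included the 7 members called with all libraries. Without replicate 1 the calls were 8 and 0, against 7.68% and 6.02% of all genes, and 4 of the 7 were among them. With trends along GC content and gene length taken out of each library by lowess, 11 members were lower and 2 higher, where 13.3% and 11.4% of all genes were, and their median was -0.19. Yet without any one of the Ctrl libraries or without MIR21-KO replicate 2, PSMD11 was the single member called. In these fits 5.59%, 5.76% and 5.45% of all genes were called without Ctrl replicates 1, 2 and 3, and 4.8% without MIR21-KO replicate 2.

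**Figure D3:**
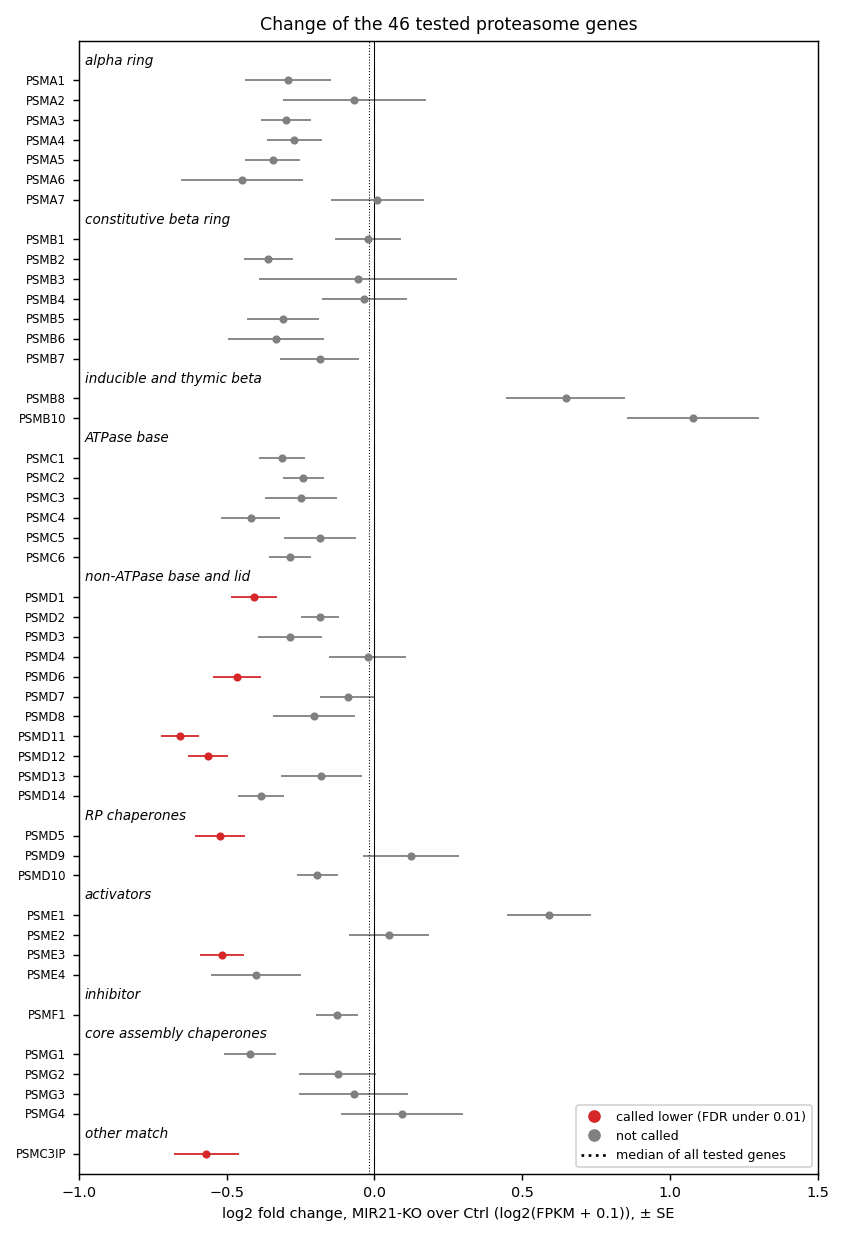
Log2 fold change, MIR21-KO over Ctrl, of the 46 tested proteasome genes (x axis, on the log2(FPKM + 0.1) scale, bars are SE), grouped by role, with genes called lower in red. All 17 base and lid subunits lie left of 0 (PSMD4 lies right of it with upper-quartile scaling), PSMB8 and PSMB10 lie at 0.65 and 1.08, and the dotted line marks the median of all tested genes at -0.02.

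Of the 7 members called lower, 4 were base or lid subunits of the regulatory particle. All 17 of its base and lid subunits had negative values with a median of -0.28, PSMD4 turning positive with upper-quartile scaling. The 4 that fell at an FDR under 0.01 were PSMD11, PSMD12, PSMD6 and PSMD1. Beside these 4 of 17, 8.38% of all tested genes were called lower. Among protein-coding genes that averaged 10 FPKM or more it was 16.1%. PSMD11 (ENSG00000108671, chr17:32444261-32483318, plus strand, GRCh38), a scaffold subunit of the lid, had 44.5, 45.5 and 44.6 FPKM in Ctrl and 27.4, 28.6 and 29.1 FPKM in MIR21-KO libraries. All MIR21-KO values were thus far below all Ctrl values, and each group was tight. The difference was -0.66 ± 0.0641 (FDR = 0.000696), the largest fall among the tested members, and it was called in 19 of 20 alternative analyses. An antisense gene, AC005899.8, overlaps 675 of its exon bases and was at 1.19 to 3.42 FPKM.

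PSMD12 (chr17:67337916-67366627, minus strand), another lid subunit, went from 26.9, 28.3 and 26.9 FPKM to 18.5, 17.8 and 19.2 FPKM. The groups were well apart, with a difference of -0.56 ± 0.0674 (FDR = 0.00155). PSMD6 (chr3:64010549-64024010, minus strand), also of the lid, had 9.93, 11.4 and 10.4 FPKM in Ctrl and 7.71, 7.76 and 7.40 FPKM in MIR21-KO cells. Its difference was -0.46 ± 0.0817 (FDR = 0.00648), but -0.31 with an FDR of 0.156 with the GC and length trends removed. PSMD1 (chr2:231056864-231172827, plus strand), the large scaffold of the base, had 41.6, 40.3 and 38.7 FPKM in Ctrl and 28.8, 29.6 and 32.6 FPKM in MIR21-KO cells. It differed by -0.41 ± 0.0768 (FDR = 0.00837), with MIR21-KO replicate 3 closest to Ctrl and not lowest as for most members. The same order of replicate 3 held for the called genes PSMD11, PSMD12, PSMD5 and PSME3. The FDRs of PSMD12, PSMD6 and PSMD1 rose to at most 0.036, 0.20 and 0.052 over the alternatives.

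The other 13 base and lid subunits were not called. PSMD14, the deubiquitinase of the lid, missed the threshold narrowly with -0.38 (FDR = 0.0112), and the ATPase PSMC4 had -0.42 (FDR = 0.0200). At the other end PSMD4, a ubiquitin receptor, had 58.9, 66.6 and 62.9 FPKM in Ctrl and 72.5, 62.3 and 52.1 FPKM in MIR21-KO libraries. Its MIR21-KO values straddled those of Ctrl, and the difference was -0.02 ± 0.129. In all, 9 of the 17 base and lid genes passed an FDR of 0.05, all lower, where 16.8% of all tested genes were lower at that threshold. Among protein-coding genes that averaged 10 FPKM or more, the share at 0.05 was not computed. At an FDR under 0.01 it was 16.1%, against 8.38% of all tested genes. Without MIR21-KO replicate 3, 16 of the 17 were negative with a median of -0.20, and without replicate 1 all 17 were, with -0.34. The calls among them were 4 and 3, the latter being PSMD11, PSMD12 and PSMC4, where 11.3% and 7.68% of all genes were called lower.

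Of the chaperones that assemble this particle, PSMD5 (chr9:120815496-120842984, minus strand) fell, from 23.1, 21.4 and 23.0 FPKM to 15.0, 14.8 and 17.2 FPKM. The groups did not overlap, and the difference was -0.52 ± 0.0853 (FDR = 0.00492). PSMD10 had -0.19 (FDR = 0.0782) and PSMD9 0.12 (FDR = 0.599).

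No core gene was called with all libraries. Of 14 tested alpha and constitutive beta genes 13 were negative, with a median of -0.28, 3 of which (PSMB1, PSMB3 and PSMB4) turned positive with upper-quartile scaling, and the MIR21-KO libraries were far apart. Summed over the 7 constitutive beta genes, FPKM were 637.8, 707.7 and 713.5 in Ctrl and 709.5, 603.2 and 494.1 in MIR21-KO replicates 1 to 3. The sum of the first MIR21-KO library thus lay within the range of Ctrl. The core genes PSMB2, PSMA5 and PSMA3 passed an FDR of 0.05, with -0.36, -0.34 and -0.30, which made 3 of 14 lower beside the 16.8% of all tested genes. Without MIR21-KO replicate 3, 10 of the 14 were negative with a median of -0.18 and 0 were called. Without replicate 1 all 14 were negative with a median of -0.34, and PSMB2 and PSMA5 were called lower, as were 7.68% of all genes.

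The catalytic PSMB5 (chymotrypsin-like site) had 125.4, 133.1 and 126.2 FPKM in Ctrl and 119.9, 105.2 and 87.6 FPKM in MIR21-KO libraries, a difference of -0.31 ± 0.123 (FDR = 0.101). PSMB6 (caspase-like) had 149.1, 173.4 and 161.6 FPKM against 159.3, 126.98 and 103.4 FPKM, and -0.33 ± 0.162 (FDR = 0.165). PSMB7 (trypsin-like) had 123.9, 137.6 and 125.4 FPKM against 131.6, 116.9 and 94.5 FPKM, and -0.19 ± 0.132 (FDR = 0.325). The ranges of PSMB6 and PSMB7 overlapped, and in each of these genes MIR21-KO replicate 3 was lowest. With the trends removed PSMB5 and PSMB6 were called lower (FDR = 0.00232 and 0.00569).

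PSMA7, the most abundant member, had 193.1, 223.3 and 213.6 FPKM in Ctrl and 255.2, 217.9 and 169.3 FPKM in MIR21-KO libraries. Its difference was 0.01 ± 0.158. PSMB1 had 59.8, 67.3 and 64.1 FPKM against 72.0, 62.2 and 55.2 FPKM, with a difference of -0.02 ± 0.112. In both genes the MIR21-KO values lay on either side of those of Ctrl.

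The inducible catalytic subunits had higher values in MIR21-KO libraries, which did not pass the threshold. PSMB10 (chr16:67934502-67937087, minus strand) had 3.77, 2.51 and 3.55 FPKM in Ctrl and 8.32, 7.67 and 5.20 FPKM in MIR21-KO cells. The groups did not overlap, and the difference of 1.08 ± 0.224 was the largest of the 46 tested members (FDR = 0.0123, with 0.0036 to 0.055 over the alternatives). PSMB8 (chr6:32840717-32844703, minus strand) had 0.744, 0.927 and 0.948 FPKM against 1.72, 1.34 and 1.23 FPKM, with a difference of 0.65 ± 0.201 (FDR = 0.0483). It rested on 19 to 26 reads in Ctrl and 32 to 47 reads in MIR21-KO libraries.

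PSMB9 (chr6:32844136-32859585, plus strand) had 0.0256, 0.303 and 0.167 FPKM in Ctrl and 0.597, 0.532 and 0.477 FPKM in MIR21-KO libraries. Each MIR21-KO value exceeded each Ctrl value, but with 1, 10 and 7 reads against 25, 20 and 19 reads its mean was too low to be tested. With no filter on low values the FDR of PSMB9 was 0.101. PSMB9 and PSMB8 share 139 exon bases on opposite strands.

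Since an inducible subunit takes the place of a constitutive one, their FPKM ratios were formed within each library, where scaling cancels out. PSMB8 amounted to 0.593%, 0.697% and 0.751% of PSMB5 in Ctrl and to 1.43%, 1.28% and 1.40% in MIR21-KO libraries. PSMB10 amounted to 3.04%, 1.82% and 2.83% of PSMB7 in Ctrl and to 6.32%, 6.56% and 5.50% in MIR21-KO libraries. PSMB9 amounted to 0.0172%, 0.175% and 0.103% of PSMB6 and to 0.375%, 0.419% and 0.461%. In all 3 pairs the groups did not overlap. The mean log2 ratio differed by 1.02, 1.29 and 2.62 for PSMB8, PSMB10 and PSMB9, each with p = 0.10 by a two-sided exact permutation test, the smallest value that 3 against 3 libraries allow and 0.10 after adjustment over the 3 pairs. For PSMB9 the difference was 1.64 without Ctrl replicate 1, whose value rests on 1 read. Even in MIR21-KO cells the inducible subunits thus remained, by FPKM, a few percent of the constitutive ones or less. For PSMB10 this level is uncertain, since 58.3% of its coding bases are shared with another gene on the same strand. Whether reads there were dropped was not tested.

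**Figure D4:**
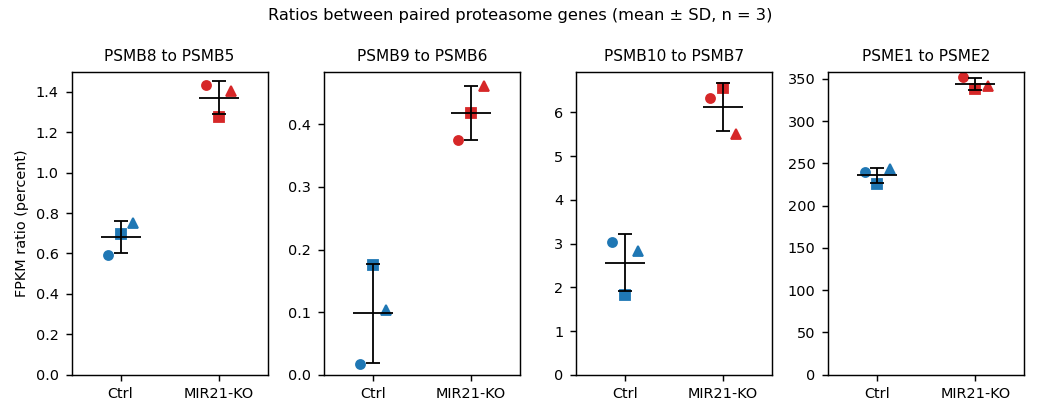
FPKM ratio in percent (y axes, from 0) of PSMB8 to PSMB5, PSMB9 to PSMB6, PSMB10 to PSMB7 and PSME1 to PSME2 in Ctrl and MIR21-KO libraries, with black bars for mean and SD (n = 3) and replicates by symbol. In each panel the 3 MIR21-KO points lie above the 3 Ctrl points, for instance at 5.50% to 6.56% against 1.82% to 3.04% for PSMB10 to PSMB7.

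The activators differed in direction. PSME3 (chr17:42824385-42843758, plus strand), which forms a nuclear activator, had 79.7, 72.5 and 73.7 FPKM in Ctrl and 51.0, 51.9 and 54.8 FPKM in MIR21-KO libraries. The fall was clear of the spread, with -0.52 ± 0.0745 (FDR = 0.00313, at most 0.029 over the alternatives). PSME1 had 88.0, 91.1 and 92.2 FPKM in Ctrl and 160.2, 143.7 and 109.8 FPKM in MIR21-KO libraries. All 3 exceeded Ctrl, but replicate 3 much less so, and the difference of 0.59 ± 0.142 was not called (FDR = 0.0206). Without that replicate it was called with an FDR of 0.000966.

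Its partner PSME2, which joins PSME1 in one ring, had 36.8, 40.3 and 37.9 FPKM against 45.5, 42.6 and 32.1 FPKM. Here the groups overlapped, and the difference was 0.05 ± 0.136 (FDR = 0.812). PSME1 therefore stood at 239.3%, 226.00% and 242.9% of PSME2 in Ctrl and at 351.8%, 337.6% and 341.99% in MIR21-KO libraries, a ratio that was formed after the values had been seen. The same exact permutation test gave p = 0.10 for it, again the smallest value possible. PSME4, a further activator, had -0.40 (FDR = 0.0891), and the inhibitor PSMF1 had -0.13 (FDR = 0.222).

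Among core assembly chaperones PSMG1 had -0.42 (FDR = 0.0127), whereas PSMG2, PSMG3 and PSMG4 lay between -0.12 and 0.09. PSMC3IP (chr17:42572315-42577831, minus strand), the recombination gene that matches by name alone, had 11.3, 10.9 and 11.1 FPKM in Ctrl and 8.19, 7.90 and 6.35 FPKM in MIR21-KO libraries. It was called lower with -0.57 ± 0.110 (FDR = 0.00949), and shares 770 exon bases with MLX on the opposite strand. Without PSMC3IP the count was 6 of 45 tested genes lower, with a median of -0.24.

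Genes that work with the proteasome but bear other names were read from a list of 34, of which 32 could be tested. Of these, 3 were called lower and 1 higher, where 8.38% and 7.66% of all tested genes were, and the median was -0.16. UCHL5 and USP14, the deubiquitinases bound to the regulatory particle, fell from 10.8 ± 0.210 to 6.96 ± 0.558 FPKM and from 21.7 ± 0.986 to 15.3 ± 1.28 FPKM (log2 fold changes of -0.63 and -0.50, FDR = 0.00252 and 0.00559). RAD23B, which shuttles ubiquitinated proteins to the proteasome, fell from 73.7 ± 0.983 to 53.9 ± 1.91 FPKM (-0.45, FDR = 0.00355). All 8 shuttles and segregase genes had negative values, from -0.45 to -0.16. By contrast, 5 of 6 genes for ubiquitin and its activating enzymes were positive, up to 0.39, and none was called.

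NFE2L1 had 48.5 ± 0.327 FPKM in Ctrl and 47.7 ± 1.91 FPKM in MIR21-KO cells (-0.02 ± 0.0668, FDR = 0.820). POMP, which matures the core particle, had 83.4 ± 4.73 against 69.5 ± 10.7 FPKM (-0.27, FDR = 0.136). On the side of antigen presentation, NLRC5, the activator of MHC class I genes, rose from 0.736, 0.811 and 0.738 FPKM to 1.80, 2.02 and 1.92 FPKM (1.23 ± 0.154, FDR = 0.00187). IRF1, an interferon-induced transcription factor, had 4.71 ± 0.561 against 5.72 ± 0.448 FPKM (0.28, FDR = 0.124), and the peptide transporter gene TAP1 had 0.333 ± 0.0461 against 0.443 ± 0.0828 FPKM, too low to be tested.

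Because the deleted gene encodes miR-21-5p, the longest annotated 3' UTR of each gene was searched for the heptamer that pairs with bases 2 to 8 of the miRNA. The mature sequence from RefSeq (GRCh38.p14, chr17:59841273-59841294, plus strand), with these bases in capitals, is shown because it defines the search, and the only match among the members is shown next to it with the heptamer in capitals.
miR-21-5p: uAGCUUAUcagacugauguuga
PSMA8 3' UTR: gtgccagagccATAAGCTtacggttgagga
None of the 46 tested members held the heptamer, compared with 10.6% of 11661 tested genes with an annotated 3' UTR. Their 3' UTRs were shorter, with a median of 743.5 bases against 1623. PSMA8, which had no read, was the exception.

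Promoters, from 250 bases before to 50 bases after an annotated start, were found for 43 of the 49 genes in RefSeq (GRCh38.p14), and none for PSMA7, PSMB1, PSMB6, PSMB7, PSMD4 and PSMG3. They were searched on both strands for TGACNNNGC, the core of the antioxidant response element that factors such as that of NFE2L1 bind, and AANNGAAA, a core that interferon regulatory factors bind. The first was found in 14 of 40 tested members (35.0%) and in 19.5% of 9183 tested protein-coding genes, and the second in 13 of 40 (32.5%) and in 20.7%. Genes with several annotated starts had more than 1 promoter searched. Of the 7 members called lower, 3 held the first (PSMD1, PSMD5 and PSMD12) and 1 the second (PSMD6). PSMB8 and PSMB10 held the second alone, PSME1 and PSME2 held both, and PSMB9 held the first alone. Shown are promoters of 3 genes with higher values in MIR21-KO libraries and of 2 that fell, with either motif in capitals.
PSMB8, chr6:32843998-32844297, minus strand: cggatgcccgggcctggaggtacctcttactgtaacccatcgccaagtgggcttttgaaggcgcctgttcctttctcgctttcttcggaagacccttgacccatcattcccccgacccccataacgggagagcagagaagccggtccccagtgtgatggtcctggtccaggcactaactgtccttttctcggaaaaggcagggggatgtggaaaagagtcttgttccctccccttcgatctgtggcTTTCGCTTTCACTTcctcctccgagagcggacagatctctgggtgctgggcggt
PSMB10, chr16:67936801-67937100, minus strand: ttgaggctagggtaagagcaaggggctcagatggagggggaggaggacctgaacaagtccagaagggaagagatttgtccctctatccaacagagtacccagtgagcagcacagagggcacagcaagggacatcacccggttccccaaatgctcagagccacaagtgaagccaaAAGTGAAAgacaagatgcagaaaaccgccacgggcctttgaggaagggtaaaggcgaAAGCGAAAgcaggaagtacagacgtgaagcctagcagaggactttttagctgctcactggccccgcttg
PSME1, chr14:24135944-24136243, plus strand: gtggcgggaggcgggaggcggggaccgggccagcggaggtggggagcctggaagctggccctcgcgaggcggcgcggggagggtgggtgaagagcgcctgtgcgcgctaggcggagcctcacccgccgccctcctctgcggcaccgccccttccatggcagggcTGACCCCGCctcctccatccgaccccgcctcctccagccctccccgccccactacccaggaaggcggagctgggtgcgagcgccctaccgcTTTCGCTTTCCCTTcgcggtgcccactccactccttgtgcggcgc
PSMD12, chr17:67366528-67366827, minus strand: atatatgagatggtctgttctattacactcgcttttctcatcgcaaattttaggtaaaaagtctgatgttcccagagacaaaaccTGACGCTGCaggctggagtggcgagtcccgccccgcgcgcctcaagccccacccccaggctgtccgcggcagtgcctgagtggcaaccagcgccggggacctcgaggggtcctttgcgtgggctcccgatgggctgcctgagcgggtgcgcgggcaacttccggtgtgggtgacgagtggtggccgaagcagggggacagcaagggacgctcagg
PSMD5, chr9:120842873-120843172, minus strand: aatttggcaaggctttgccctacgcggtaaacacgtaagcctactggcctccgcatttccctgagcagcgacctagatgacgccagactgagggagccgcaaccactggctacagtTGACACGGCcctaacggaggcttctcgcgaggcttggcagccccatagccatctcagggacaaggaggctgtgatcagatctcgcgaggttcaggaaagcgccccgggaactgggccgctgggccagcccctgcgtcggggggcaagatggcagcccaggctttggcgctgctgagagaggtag
The matches of PSMB8 overlap each other, as do those of the second motif in PSME1. PSMD11, the tested member with the largest fall, held neither motif in its window.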

How the data were processed

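PolyA RNA-seq of 6 A549 libraries was analysed. Per the labels, the authors used cutadapt 1.14, HISAT2 2.1.0, SAMtools 1.5, featureCounts 1.5.3 and edgeR 3.18.1 with hg38, and libraries were strand-specific. Annotation and counting settings are not given in the sources used here. The authors deposited FPKM per gene and library, with TMM scaling by their methods, beside gene length. The log2 fold changes, p-values and FDRs that the authors computed between the groups stand in the same deposited table and were not used.

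FPKM times length gave whole reads for 100% of values within 1e-06. A single read on 1 kb was worth 0.0731 to 0.0930 FPKM, and limits from 3 reads cover counting error only. As FPKM are no counts, log2(FPKM + 0.1) was fitted with limma 3.58.1 (R 4.3.3, trend and robust fitting, two-sided, Benjamini-Hochberg over 16006 genes, FDR under 0.01). Ratios were tested by exact permutation. The procedure was tested on simulated data. GENCODE 29 gave coordinates (GRCh38), overlaps and 3' UTRs for 99.4% of genes, and 48 of 49 members had its exon length. PSMB8 was the exception. GC content was known for 99.7% of tested genes.

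Every member was named. Values per library were given for called members, PSMB5 to PSMB10, PSME1, PSME2 and the 5 largest and 3 smallest changes, and companion genes with values when called, with NFE2L1, POMP, TAP1 and IRF1 always. The members, lists and alternatives were chosen with earlier results of these data known. Alternatives were filters, pseudocounts, scalings, an FDR of 0.05, coding genes only, plain limma, voom on recovered reads, removed GC and length trends, a replicate block and leaving out each library. Figures were drawn with matplotlib 3.10.9.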

Additional observations from a re-analysis of the deposited data

How the results depend on the processing

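Labels of the same replicate number did not pair the libraries (correlations of deviations of -0.17, -0.02 and -0.02), and a replicate block left 651 genes, 0 members lower, 0 higher and 0 companion genes called, in place of 2568, 7, 0 and 4; the cause was not tested. The split of calls was 47.7% higher, but 59.3% with upper-quartile scaling and 58.2% with the block. Over all genes, 5114 were called at an FDR under 0.05, 3954 with GC and length trends removed, and 768 to 3400 without one library. Members called lower are given with the share of all tested genes called lower in brackets. There were 3 with no filter (3.10%), 12 with scaling by total reads (9.63%) and 3 with upper-quartile scaling (6.47%). At an FDR under 0.05 there were 16 (16.8%), and without trend and robust fitting 3 (5.61%). With trends removed there were 11 (13.3%), with trends removed and the block 4 (5.79%), and without one library 1 to 8 (2.30% to 11.3%). Members called higher were 3 at an FDR under 0.05, 2 with voom and 2 with trends removed, where 15.2%, 10.5% and 11.4% of all genes were. They were also 1 with at least 5 FPKM, 1 with at least 10 reads, 1 with upper-quartile scaling, 2 among coding genes only and 0 to 2 without one library. In these settings 1953 of 7551, 3029 of 14448, 2541 of 16006 and 3253 of 11719 tested genes were called in either direction. Without one library it was 768 to 3400 of 16006. Of those calls, and not of all tested genes, 39.2%, 48.8%, 59.3%, 47.0% and 44.0% to 57.8% were higher. Of 32 tested companion genes, 10 were called at an FDR under 0.05, 7 with coding genes only and 2 without trend and robust fitting. It was 9 with trends removed, 0 with trends removed and the block, and 0 to 6 without one library. Over all genes the calls in these settings, in the same order, were 5114, 3253, 1946, 3954, 1761 and 768 to 3400. These were out of 16006 tested genes, or 11719 with coding genes only. Signs turned in uncalled genes near 0: with upper-quartile scaling for PSMB1 (0.052), PSMB3 (0.017), PSMB4 (0.039), PSMD4 (0.050), PSMG3 (0.0029), NFE2L1 (0.050), with trends removed (with and without the block) for PSMA2 (0.059), PSMA7 (-0.093), PSMB1 (0.088), with scaling by total reads for PSMA7 (-0.026), and without one library for PSMA2 (-0.19 to 0.17), PSMA7 (-0.13 to 0.17), PSMB1 (-0.12 to 0.072), PSMB3 (-0.27 to 0.31), PSMB4 (-0.17 to 0.11), PSMD4 (-0.14 to 0.099), PSME2 (-0.051 to 0.20), PSMG3 (-0.24 to 0.13), PSMG4 (-0.076 to 0.26), NFE2L1 (-0.054 to 0.0029) on the log2 scale. The cause was not tested.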

Other observations

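Copies of the proteasome genes were also listed. Of 32 pseudogenes named after members, 17 had no read in any library and 2 had a mean above 1 FPKM. PSMC1P1 had 7.8, 9.16 and 6.76 FPKM in Ctrl and 3.45, 3.4 and 5.08 FPKM in MIR21-KO libraries. PSMA6P1 had 3.71, 4.89 and 3.85 FPKM in Ctrl and 4.26, 4.41 and 2.60 FPKM in MIR21-KO libraries, above PSMA6 in every library. How reads shared by PSMC1 and PSMC1P1, or by PSMA6 and PSMA6P1, were assigned is not given in the sources used here. PSMB3 stood out within a group, with 88.9 FPKM in Ctrl replicate 3 against 39.5 and 43.5 FPKM in the other Ctrl libraries, and its difference of -0.06 ± 0.335 had the largest SE of the tested members.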
